A study of Gossypium barbadense and Gossypium hirsutum with 72 samples.

Results

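The miR165 and miR166 family was followed through the small RNA libraries of nulliplex- and normal-branch cotton. Its members were taken by name: every entry of the miRNA count table named miR165 or miR166, with no further digit, was kept. This gave 7 of the 4062 names in the table, of which 712 are known miRNAs. Shoot apexes of 4 cotton lines were taken as seedlings (stage 1), before squaring (stage 2, pre-squaring) and at squaring (stage 3), and each of the 12 groups had 3 small RNA libraries and 3 mRNA libraries. Hai1 (G. barbadense, normal branch) gave miGb1WT, miGb2WT and miGb3WT, and Xinhai16 (G. barbadense, nulliplex branch) gave miGb1np, miGb2np and miGb3np. Huazhong 94-3130 (G. hirsutum, normal branch) gave the miGh WT groups, and 3798 (G. hirsutum, nulliplex branch) gave the miGh np groups. The digit gives the stage, and the mRNA groups have the same names without mi. By the labels, seedlings had 2 leaves in all 4 lines. Plants of Hai1 and Xinhai16 had 8 and 6 leaves at pre-squaring and 11 and 9 leaves at squaring, and those of Huazhong 94-3130 and 3798 had 6 and 5 leaves and then 8 and 12. The methods of the study give other leaf numbers for some groups, among them Hai1 and 3798 at squaring, with the same range for both G. hirsutum lines there. Each branch type is represented by 1 line per species, so branch type and line cannot be told apart.

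The mature sequences of miR165 and miR166 differ in a single base, and miR166 is conserved among land plants. They guide the cleavage of mRNAs of the class III homeodomain-leucine zipper (HD-ZIP III) transcription factors, which in Arabidopsis include REVOLUTA, PHABULOSA, PHAVOLUTA, CORONA and ATHB8. In Arabidopsis leaf primordia the miRNAs act on the lower (abaxial) side and keep HD-ZIP III mRNAs to the upper (adaxial) side, and both also take part in shoot meristem maintenance and in vascular patterning. In each hairpin the 3p strand is the one known to guide cleavage, and the 5p strand is its partner.

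The small RNA libraries held 754812 to 4329247 reads of miRNAs, and levels are given as RPM, reads per 1000000 miRNA reads of the library, as mean ± SD of 3 libraries. Replicates of a group differed by more than sampling noise, so each was counted as a sample of its own. At 3 counts, the limit that a count of 0 allows in 1 library lay between 0.693 and 3.97 RPM. Groups were compared with edgeR's quasi-likelihood test on counts after TMM scaling, a scaling by the trimmed mean of the log ratios that sets the bulk of miRNAs to no change. Names were tested as listed, and family sums were tested in a table with the known names summed by family number. A miRNA was called differentially expressed (a DEM) when its log2 fold change was beyond 1 in either direction with an adjusted p under 0.001. The study calls the replicates biological, and nothing in the labels says whether they came from separate plants or from pooled apexes, so the p-values measure the spread between these libraries, which may be technical. In apexes sampled whole, fewer cells that make a miRNA and less of it per cell cannot be told apart.

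miR166a-3p made up nearly the whole family. It had 17604592 reads over the 36 libraries, 98.8% of the family reads and the second most of any name in the table. Its share of the family was 97.4% in the lowest library and 99.5% in the highest, and it was the most abundant name in 20 libraries. The other 6 names had from 11751 reads (miR165a-5p) to 71183 reads (miR166g-5p), with 54090 for miR166d-5p, 30995 for miR166i, 30909 for miR165a-3p and 15891 for miR166c. miR165a-3p and miR165a-5p had reads in all 36 libraries. The remaining names were each at 0 in most libraries: miR166g-5p and miR166c had reads in 8 libraries, miR166d-5p in 13 and miR166i in 7. The family sum therefore follows miR166a-3p, and the less abundant names are described separately after it.

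The family took 9.57% to 61.9% of the miRNA reads of a library, with a median of 35.3%. It was lowest in G. barbadense seedlings, with 108777 ± 11427 RPM in miGb1WT and 110541 ± 13415 RPM in miGb1np. G. hirsutum seedlings followed with 180993 ± 24631 RPM in miGh1np and 220323 ± 37338 RPM in miGh1WT. The squaring stage of the normal-branch lines came next, at 240233 ± 6364 RPM in miGb3WT and 302994 ± 24844 RPM in miGh3WT. Pre-squaring apexes held more: miGb2WT had 391249 ± 22986 RPM, miGb2np 421921 ± 22113 RPM, miGh2WT 507853 ± 49195 RPM and miGh2np 558380 ± 31798 RPM. At squaring the nulliplex lines held more than the normal-branch lines: miGh3np had 513325 ± 78164 RPM and miGb3np, the highest group, 600638 ± 30345 RPM. In this order the libraries of neighbouring groups did not overlap between miGb1np and miGh1np, miGb3WT and miGh3WT, miGh3WT and miGb2WT, and miGb2np and miGh2WT. All other neighbours overlapped, including the 4 highest groups.

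**Figure D1:**
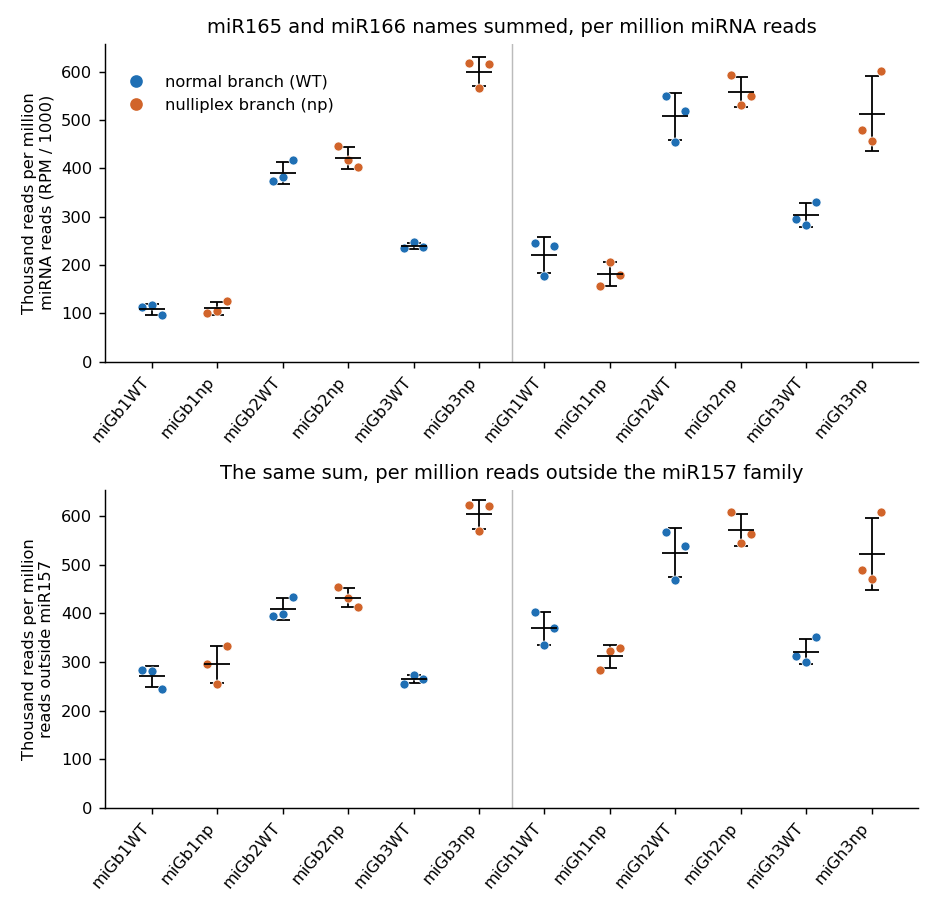
Sum of the 7 miR165 and miR166 names in each small RNA library (points; 3 per group) with the group mean and SD (bars), in RPM in the upper panel and scaled to the reads outside the miR157 family in the lower panel (both axes as reads per 1000000, divided by 1000). In both panels the squaring groups of the nulliplex lines, miGb3np and miGh3np, lie above miGb3WT and miGh3WT without overlap.

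In squaring apexes of G. barbadense the family was higher in the nulliplex branch. The libraries of miGb3WT had 235072, 247344 and 238284 RPM, and those of miGb3np had 619359, 565627 and 616928 RPM. All miGb3np libraries lay above all miGb3WT libraries, and the group means differed 2.50-fold. With TMM scaling the log2 fold change was 1.83 (SE 0.14, adjusted p = 0.000843), against a median of -0.53 over all 397 families tested, and with library totals in place of TMM it was 1.32. This was the only one of the 6 branch comparisons in which the family sum was called a DEM, and 13.6% of the families tested were called there. The adjusted p lay close to the threshold. Without any 1 of the 6 libraries in turn the log2 fold change stayed between 1.74 and 1.93, but the adjusted p rose to 0.00153 to 0.00802 and the call was lost each time, as it was with the replicate number as a block (log2 fold change 1.82, adjusted p = 0.0334). It held with the 36 libraries in 1 fit (log2 fold change 1.98, SE 0.19, adjusted p = 3.0e-08), in which 4.08% of 932 families were called for this contrast.

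miR157, a miRNA of the juvenile phase, moved in the other direction. It had 91926 ± 10767 RPM in miGb3WT and 5804 ± 1463 RPM in miGb3np, with no overlap. Scaled to the reads outside miR157, the family was still higher in miGb3np by 1.19 on the log2 scale (adjusted p = 0.000588). The 5 tissue marker genes of the mRNA libraries of the same groups were read beside it. SEP3, a floral organ identity gene, had 2.26 ± 0.685 RPKM (as deposited: reads per 1000000 reads of the library and per kilobase of coding sequence) in Gb3WT and 7.54 ± 2.69 in Gb3np. The dividing-cell genes PCNA2 and ORC6 had 32.2 ± 7.15 and 4.71 ± 1.40 RPKM in Gb3WT and 48.5 ± 7.58 and 6.87 ± 1.64 in Gb3np. Of the green leaf genes, CA1 had 27.6 ± 9.65 and 31.7 ± 3.49 RPKM, and GGR 6.87 ± 2.12 and 13.7 ± 2.08. The part of stage progress and tissue make-up in the difference of the family was not tested.

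The squaring stage of G. hirsutum showed the same direction with a wider spread. The libraries of miGh3WT had 295093, 283061 and 330827 RPM, and those of miGh3np 479800, 457516 and 602659 RPM. The groups did not overlap and their means differed 1.69-fold. The log2 fold change was 1.08 (SE 0.29) with an adjusted p of 0.0474, short of the threshold. In the fit of 36 libraries it was 1.16 (SE 0.19, adjusted p = 1.3e-04) and passed, with 1.93% of 932 families called. miR157 again moved in the other direction, with 56928 ± 1448 RPM in miGh3WT and 18144 ± 9974 RPM in miGh3np. Here the dividing-cell genes were lower in the nulliplex line, where PCNA2 had 26.3 ± 4.05 RPKM in Gh3np and 58.8 ± 17.9 in Gh3WT and ORC6 4.53 ± 0.698 and 8.98 ± 2.15. SEP3 had 12.5 ± 3.72 RPKM in Gh3np and 7.79 ± 6.19 in Gh3WT, CA1 34.5 ± 6.99 and 51.9 ± 9.52, and GGR 20.8 ± 4.07 and 23.4 ± 1.99. Their part in the difference of the family was not tested.

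The other 4 branch comparisons gave no call for the family. In miGb2WT the libraries had 374555, 381726 and 417467 RPM and in miGb2np 445694, 418105 and 401965 RPM, and the groups overlapped (log2 fold change 0.30, SE 0.10, adjusted p = 0.148). The log2 fold change was 0.14 (SE 0.16, adjusted p = 0.98) between miGb1np and miGb1WT, -0.31 (SE 0.17, adjusted p = 0.74) between miGh1np and miGh1WT and 0.15 (SE 0.16, adjusted p = 0.86) between miGh2np and miGh2WT, with overlap in each. These comparisons, and the squaring stage of G. hirsutum, had 0% of 360 to 435 families and 0% of 380 to 459 names called by edgeR. Between 40 and 150 families and between 41 and 149 names had an unadjusted p under 0.05 there, and DESeq2 at the same thresholds called 11 to 90 families and 12 to 101 names.

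Whether the branch effect differed between species or stages was tested as 5 contrasts in the fit of 36 libraries, and none passed the threshold for the family. At squaring, the effect in G. barbadense exceeded that in G. hirsutum by 0.83 on the log2 scale (SE 0.27, adjusted p = 0.0863), where 1.07% of families were called. The same difference was 0.11 (SE 0.27, adjusted p = 1.00) at pre-squaring, where 0.107% were called, and 0.47 (SE 0.27, adjusted p = 1.00) at the seedling stage, where edgeR called 0% and 51 families had an unadjusted p under 0.05. The branch effect at pre-squaring minus the mean of the other stages was -0.79 in G. barbadense (SE 0.23, adjusted p = 0.126, 0.322% called). It was -0.25 in G. hirsutum (SE 0.23, adjusted p = 1.00), where 0% were called and 70 families had an unadjusted p under 0.05. The larger effect in G. barbadense at squaring is thus a difference of estimates that did not pass its own test.

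Between stages, the level of the family in RPM and its fitted fold change went apart. From seedling to pre-squaring the family was higher in RPM by 3.6-fold in Hai1, 3.82-fold in Xinhai16, 2.31-fold in Huazhong 94-3130 and 3.09-fold in 3798, with no overlap in any line. After TMM scaling the log2 fold changes of the same comparisons were -0.14 (SE 0.13), -0.04 (SE 0.16), 0.29 (SE 0.18) and 0.67 (SE 0.17), with adjusted p of 0.47, 0.88, 0.31 and 0.0228, and none was called. The TMM factors shifted the groups apart by 1.99, 1.96, 0.91 and 0.96 on the log2 scale in these comparisons. The seedling libraries were dominated by miR157, which had 356623 to 657577 RPM in seedlings, 16447 to 49119 RPM at pre-squaring and 4816 to 101566 RPM at squaring. Scaled to the reads outside miR157, the family was higher at pre-squaring by 0.60, 0.55, 0.51 and 0.88 on the log2 scale. With library totals in place of TMM both G. barbadense comparisons were called, as higher at pre-squaring (log2 fold change 1.85 and 1.93, adjusted p = 0.000152 and 0.000383). The direction in the G. barbadense lines is thus set by the scaling, and its higher RPM is a higher share of all miRNA reads.

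Of the 5 marker genes, 2 set seedlings apart from the later stages and 3 did not. CA1 had 104 to 1357 RPKM in seedling libraries, with a median of 1015, and 12.8 to 60.6 RPKM in all later libraries. SEP3 had no read in any seedling library and 0.111 to 16.5 RPKM later. PCNA2 overlapped between the stages (6.93 to 62.9 RPKM in seedlings, 11.5 to 75.9 at pre-squaring and 22.5 to 79.4 at squaring), and so did ORC6 (1.86 to 8.64, 2.60 to 10.9 and 3.09 to 11.2 RPKM). GGR, the other green leaf gene, also overlapped and went against CA1 in its medians, with 6.05 RPKM in seedlings, 15.9 at pre-squaring and 16.1 at squaring. miR156, which with miR157 marks the juvenile phase, had 40206 to 67844 RPM in seedlings and 1035 to 10561 RPM later, while miR172, a miRNA of the adult phase, had 3703 to 20163 RPM in seedlings, 3012 to 13279 RPM at pre-squaring and 2934 to 69749 RPM at squaring, with overlap. The part of tissue make-up and plant age in the stage differences of the family was not tested.

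Between pre-squaring and squaring the 2 lines of G. barbadense differed in direction. In RPM the family was 1.63-fold lower in miGb3WT than in miGb2WT and 1.42-fold higher in miGb3np than in miGb2np, without overlap in either line. The log2 fold changes were -0.82 (SE 0.11, adjusted p = 0.00582) and 0.77 (SE 0.14, adjusted p = 0.0320), neither past the thresholds. In G. hirsutum the family was 1.68-fold lower in miGh3WT than in miGh2WT (log2 fold change -1.29, SE 0.14, adjusted p = 0.00228), and miGh3np and miGh2np overlapped (log2 fold change -0.48, SE 0.30, adjusted p = 0.89). The difference between miGh3WT and miGh2WT passed the threshold with DESeq2 and with the 36 libraries in 1 fit. Of the families tested, 10.6%, 6.22%, 0.802% and 6.91% were called from seedling to pre-squaring in the line order given above. From pre-squaring to squaring 1.43% were called in Hai1 and 2.00% in Huazhong 94-3130. In Xinhai16 and 3798 edgeR called 0% there, with 76 and 27 families at an unadjusted p under 0.05 and 28 and 7 called by DESeq2. With TMM scaling the family was called in none of the 8 stage comparisons. How many of all families did not overlap in them was not counted, so the lack of overlap is not shown to be particular to this family.

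**Figure D2:**
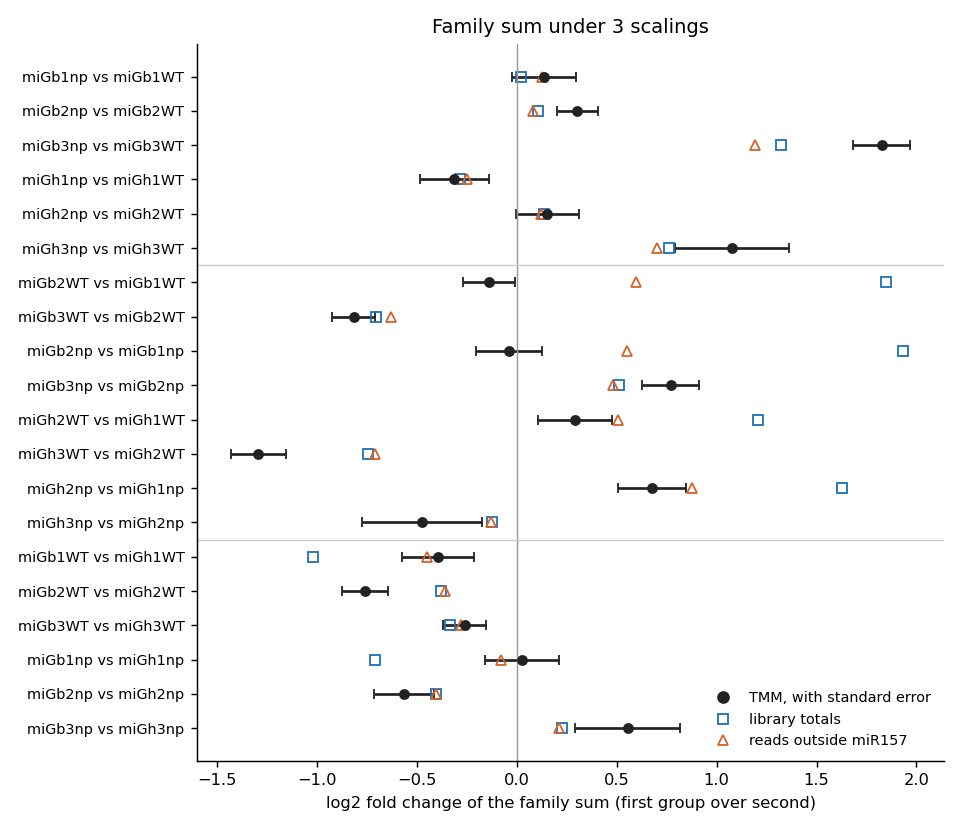
log2 fold change of the family sum (first group over second) in the 6 branch, 8 stage and 6 species comparisons with TMM scaling (points with standard error), with library totals (squares) and with reads outside miR157 (triangles). The branch effects keep their direction under the 3 scalings, and the 2 seedling to pre-squaring comparisons of G. barbadense lie below 0 with TMM and above 0 with the others.

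Between the species, the family had a higher share of the miRNA reads in G. hirsutum in 5 of 6 comparisons. In RPM the family was 2.03-fold higher in miGh1WT than in miGb1WT, 1.30-fold higher in miGh2WT than in miGb2WT and 1.26-fold higher in miGh3WT than in miGb3WT. Among the nulliplex lines it was 1.64-fold higher in miGh1np and 1.32-fold higher in miGh2np than in G. barbadense, and the groups did not overlap in these 5 comparisons. miGb3np and miGh3np overlapped. As between stages, the families without overlap were not counted here or in the branch comparisons. The lack of overlap is thus not shown to be particular to this family. The fitted log2 fold changes of G. barbadense over G. hirsutum were -0.40, -0.76 and -0.26 for the normal-branch lines and 0.03, -0.56 and 0.55 for the nulliplex lines, with adjusted p from 0.00526 to 0.94, and none was called. Among all families 0.796% were called between miGb2WT and miGh2WT and 3.65% between miGb2np and miGh2np. The other 4 species comparisons had 0% called by edgeR, 133 to 181 families at an unadjusted p under 0.05 and 96 to 115 called by DESeq2.

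The 4 names miR166c, miR166i, miR166d-5p and miR166g-5p excluded each other. In each of the 36 libraries exactly 1 of them had reads and the other 3 had none, a pattern seen in the data and not part of the choice of members. miGb2WT, miGb3WT and miGh3WT had miR166d-5p in all 3 libraries, and miGh1WT had miR166c in all 3. Each of the other 8 groups had different names in its replicates. In miGb2np, for example, replicates 1 and 3 had 4635 and 4068 RPM of miR166i, and replicate 2 had 9183 RPM of miR166g-5p. miGb3np had 10062 RPM of miR166g-5p in replicate 1 and 4502 and 4397 RPM of miR166i in replicates 2 and 3. The names miR166c and miR166i carry no arm, and the other pair is listed as 5p. The study names miR166c among the DEMs specific to pre-squaring in G. hirsutum. There it had 1604 RPM in miGh2WT replicate 2 and no read in the other miGh2WT and miGh2np libraries.

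**Figure D3:**
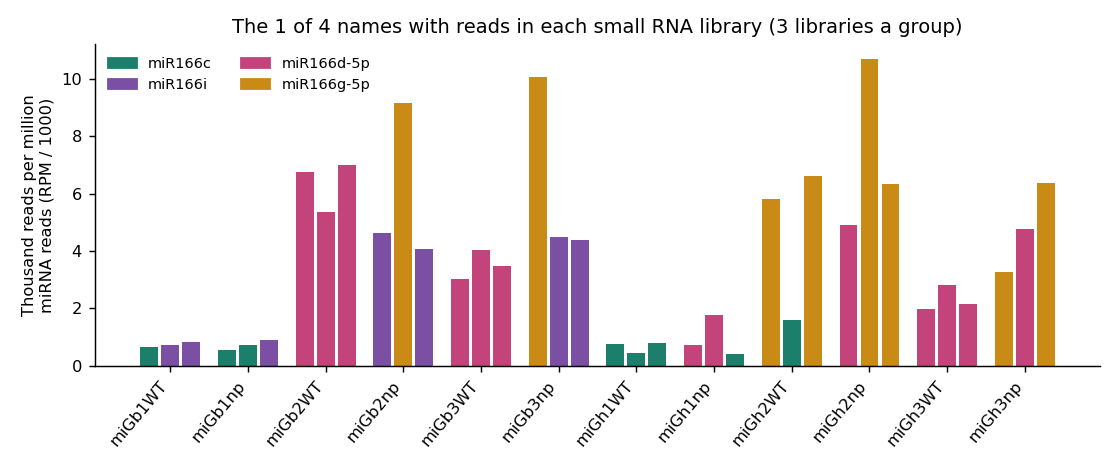
RPM divided by 1000 of miR166c, miR166i, miR166d-5p and miR166g-5p in each of the 36 small RNA libraries (bars, 3 per group in replicate order), coloured by the 1 name that had reads. The replicates of 8 groups carry more than 1 colour, and the seedling libraries hold 402 to 1762 RPM against 1604 to 10690 RPM later.

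Sums of the 4 names varied less than the single names. They ranged from 402 to 1762 RPM in seedling libraries, from 1604 to 10690 RPM at pre-squaring and from 1976 to 10062 RPM at squaring. By group the sum was 6384 ± 877 RPM in miGb2WT and 5962 ± 2804 RPM in miGb2np (log2 fold change 0.05, SE 0.31, adjusted p = 0.94). It was 3518 ± 508 RPM in miGb3WT and 6320.5 ± 3241 RPM in miGb3np without overlap and without a call (log2 fold change 1.47, SE 0.50, adjusted p = 0.0569). It was 2318 ± 448 RPM in miGh3WT and 4811 ± 1551 RPM in miGh3np, also without overlap (log2 fold change 1.34, SE 0.36, adjusted p = 0.0509). As single names these comparisons look unlike. miR166d-5p had 3024, 4040 and 3491 RPM in the miGb3WT libraries and no read in miGb3np, at least 4646-fold lower against 3 counts over the group (adjusted p = 0.000481), and was called a DEM. It was at least 7385-fold lower in miGb2np than in miGb2WT, narrowly missing the threshold (adjusted p = 0.00126). In both comparisons it passed the filter only through the normal-branch group, so these p-values are no support for a difference. How a read that fits several names was given a name is not given in the sources used here, so a difference in a single one of these names cannot be told apart from a difference in naming. Listing at 0 was common beyond the family: of 128 known names with at least 1000 reads in a library, 73 (57.0%) were at 0 in another.

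Names with reads in too few libraries were left out, and 25 of 42 pairs of a member name and a branch comparison were tested. Between stages 32 of 56 such pairs were tested, and between species 24 of 42. Over the branch comparisons 2 member names were called, both at the squaring stage of G. barbadense, where 82 of 421 names (19.5%) were called. They were miR166a-3p, which was higher in miGb3np (log2 fold change 1.84, SE 0.14, adjusted p = 0.000632), and miR166d-5p, described above, and both calls were lost without any 1 of the 6 libraries of that comparison. Over the stage comparisons miR166d-5p was called between miGb1WT, with no read, and miGb2WT, where it was at least 23774-fold higher (adjusted p = 0.00045), and miR165a-5p between miGb1np and miGb2np. Each of these calls was lost without any 1 of its 6 libraries. Of all names, 12.6%, 9.54%, 4.50% and 5.74% were called from seedling to pre-squaring in Hai1, Xinhai16, Huazhong 94-3130 and 3798. From pre-squaring to squaring 2.27%, 0.557%, 1.90% and 0% were called in the same lines, the last with 27 names at an unadjusted p under 0.05 and 9 called by DESeq2. Over the species comparisons miR166d-5p alone was called, between miGb2WT and miGh2WT, which had no read of it (at least 8533-fold higher in miGb2WT, adjusted p = 0.000711), a call also lost without any 1 of the 6 libraries. Summed over the 4 excluding names, miGb2WT was 8.52-fold higher than miGb1WT and 1.36-fold higher than miGh2WT in RPM. The bounds for miR166d-5p thus hold for that name only, and a difference in naming cannot be told apart. In each of its calls miR166d-5p passed the filter only through the group with reads, so the calls are no support for a difference. The shares of names called between the species were 5.41%, 7.25% and 3.54% for the normal-branch lines and 4.15%, 7.65% and 0% for the nulliplex lines, the last with 142 names at an unadjusted p under 0.05 and 105 called by DESeq2.

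miR165a-5p, the partner strand of miR165a-3p, did not follow miR166a-3p. Like miR165a-3p, it had its highest mean in miGb2np, with 515, 636 and 567 RPM, and it had 185, 170 and 196 RPM in miGb2WT. The groups did not overlap and their means, 573 ± 60.5 and 184 ± 12.9 RPM, differed 3.12-fold, which missed the threshold narrowly (log2 fold change 1.82, SE 0.12, adjusted p = 0.00126). It passed with DESeq2 (log2 fold change 1.79) and among known names alone (log2 fold change 1.80, adjusted p = 0.000772). From miGb1np, with 36.1 ± 5.01 RPM, to miGb2np it rose by 2.06 on the log2 scale (SE 0.14, adjusted p = 0.000586) and was called. At squaring miGb3np had 156 ± 36 RPM and miGb3WT 162 ± 62.0 RPM, and the groups overlapped. In G. hirsutum miR165a-5p had 376 ± 51 RPM in miGh2WT and 500.3 ± 104 RPM in miGh2np, and 327 ± 45.4 RPM in miGh3WT and 249.8 ± 96.3 RPM in miGh3np, with overlap at both stages. Seedlings did not overlap in either species and differed in direction: miGb1np lay below miGb1WT (62.6 ± 10.6 RPM; log2 fold change -0.69, SE 0.19, adjusted p = 0.189) and miGh1np (133 to 226 RPM) above miGh1WT (69.3 to 117 RPM; log2 fold change 0.66, SE 0.30, adjusted p = 0.705), neither with a call.

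miR165a-3p, the strand that guides cleavage, spread more widely between replicates. The libraries held 0.680 to 4.10 of its reads per 1000 reads of miR166a-3p. With a single base between the mature miR165 and miR166, reads of miR166a-3p given this name cannot be told apart here. It had 699.5 to 1440 RPM in miGb2np and 249.9 to 577 RPM in miGb2WT, without overlap (log2 fold change 1.47, SE 0.44, adjusted p = 0.101). miGb3WT held 283, 993 and 390 RPM, which overlapped the 776, 867 and 1067 RPM of miGb3np. No comparison of miR165a-3p was called, and its group means lay between 185 ± 46.9 RPM in miGb1WT and 1008 ± 385 RPM in miGb2np.

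Relative to miR166a-3p, miR165a-5p was at its highest in miGb2np, at 1.39 ± 0.197 reads per 1000 reads of miR166a-3p, and at its lowest in miGb3np, at 0.262 ± 0.0501. miGb2WT had 0.479 ± 0.0253 and miGb3WT 0.687 ± 0.268, and in seedlings miGb1np had 0.331 ± 0.0495 and miGb1WT 0.579 ± 0.0534. The nulliplex line of G. barbadense was thus above the normal-branch line at pre-squaring and below it at the other stages, without overlap at any stage. In G. hirsutum it was above in seedlings and below at squaring without overlap, and the groups overlapped at pre-squaring. miR165a-3p had from 1.08 ± 0.369 reads per 1000 of miR166a-3p in miGb2WT to 2.40 ± 0.784 in miGb2np. These ratios are a description and were not tested. Summed by arm, the 3p names followed miR166a-3p and were called at the squaring stage of G. barbadense alone among the branch comparisons (log2 fold change 1.84, SE 0.14, adjusted p = 0.000847), where 13.1% of 398 rows of that table were called. Their ratio to the 5p names has no steady meaning, since it turns on which of the 4 names had the reads: the libraries held from 0.208 to 24.1 reads of 5p names per 1000 reads of 3p names.

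**Figure D4:**
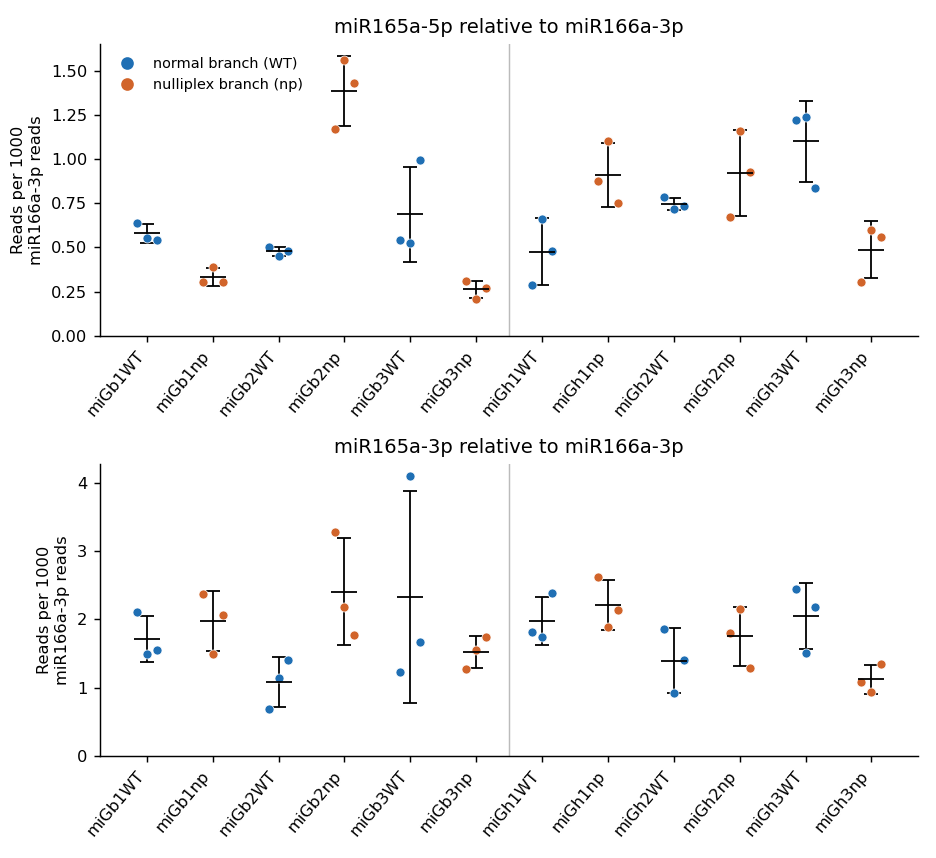
Reads of miR165a-5p (upper panel) and miR165a-3p (lower panel) per 1000 reads of miR166a-3p in each small RNA library (points) with the group mean and SD (bars). In the upper panel miGb2np lies above miGb2WT and miGb3np lies below miGb3WT, without overlap, and in the lower panel miGb3WT has the widest spread.

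Among 163 families with a mean of at least 100 RPM, those whose pattern over the 12 group means was most like the family were miR1516, miR7510 and miR3476 (Pearson r of log2(RPM + 1) of 0.970, 0.966 and 0.965). The least alike were miR157 (r = -0.948), miR156 (r = -0.893) and novel_mir_109 (r = -0.834). These values describe 12 group means that share the library total, of which miR157 took a large part in seedlings. With miR157 left out of the total, r was 0.852, 0.824 and 0.866 for these 3 families, and the order changed: novel_mir_64 (0.923), novel_mir_114 (0.909), novel_mir_1137 (0.900) and miR2111 (0.880) were then more alike. At the other end miR7505 (-0.930) was then lower than novel_mir_109 (-0.923) and miR156 (-0.751).

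Other miRNA families of leaf polarity, meristem and organ boundaries were read beside miR165 and miR166. The list was miR390, which triggers the small RNAs that limit abaxial auxin response factors, miR394, which acts on a meristem F-box gene, miR164 (CUC boundary genes), miR160 (auxin response factors), miR171 (HAM genes), miR319 (TCP genes) and miR396 (GRF genes), with targets as known in Arabidopsis. All 7 were tested in the 6 branch comparisons and edgeR called none, while from 0 to 4 per comparison had an unadjusted p under 0.05. DESeq2 called 2 at the squaring stage of G. barbadense, miR164 and miR319, and 1 at that of G. hirsutum, miR396, where it called 177 of all 397 and 90 of all 395 families. In miGb3np against miGb3WT the log2 fold change of miR164 was 1.48 (SE 0.21, adjusted p = 0.00213) and that of miR319 1.43 (SE 0.37, adjusted p = 0.0238). miR164 had 1.29 in miGh3np against miGh3WT (SE 0.28, adjusted p = 0.0243) and miR396 -2.12 (SE 0.30, adjusted p = 0.00637). The list's median log2 fold change was -0.15 and 0.39 at squaring in G. barbadense and G. hirsutum, against -0.53 and -0.23 over all families. Between stages, edgeR called miR396 lower in miGb2WT than in miGb1WT (log2 fold change -2.46) and in miGh2np than in miGh1np (-2.98), and its RPM was lower there too, at 485 ± 19.6 against 677 ± 64.3 and 199 ± 43.8 against 799 ± 44. miR171 was called in miGb2WT against miGb1WT with a log2 fold change of -1.20, but its RPM was higher in miGb2WT (473 ± 34.2) than in miGb1WT (273 ± 8.5), so its direction turned with the scaling, as that of the family did.

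The study lists HB-8 (CotAD_75643), a homologue of the HD-ZIP III gene ATHB8 of vascular development, and CotAD_39504, which has no name, as predicted targets of miR166i. It gives miR166i as higher and both genes as lower in Gb2np than in Gb2WT. Both were read in the mRNA libraries, whose group means were 24188471 to 26084535 counted reads per library. miR166i itself had reads in 2 of the 3 miGb2np and in 2 of the 3 miGb3np libraries and in none of miGb2WT and miGb3WT. In seedlings it had 736 and 839 RPM in miGb1WT replicates 2 and 3, and 910 RPM in miGb1np replicate 3. Summed with the names that exclude it, the level was 6384 ± 877 RPM in miGb2WT and 5962 ± 2804 RPM in miGb2np. A difference in miR166i thus cannot be told apart from one in naming. At pre-squaring miR166i had reads in too few libraries to pass the filter, so it was not tested there. HB-8 was a weakly expressed gene with 2 to 84 reads per library. In Gb2WT it had 3.98, 4.80 and 4.34 RPKM and in Gb2np 1.63, 0.827 and 1.19 RPKM, and it was called lower in the nulliplex line (log2 fold change -1.87, SE 0.27, adjusted p = 0.000182). Of 46495 genes tested, 9.88% were called in that comparison, and the call of HB-8 was lost without Gb2WT replicate 2 (adjusted p = 0.00135), Gb2np replicate 2 (adjusted p = 0.00125) or Gb2np replicate 3 (adjusted p = 0.0016). The tissue markers differed there too: PCNA2 had 19.9 ± 5.46 RPKM in Gb2WT and 69.9 ± 7.4 in Gb2np, ORC6 3.82 ± 0.769 and 9.18 ± 0.75, CA1 21.7 ± 5.37 and 59.1 ± 1.49, GGR 2.73 ± 0.949 and 17.7 ± 1.78 and SEP3 0.468 ± 0.481 and 2.72 ± 0.733. Their part in the difference of HB-8 was not tested.

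HB-8 was lower in the nulliplex line at the other stages of G. barbadense without passing the threshold. Gb1WT had 2.21 ± 0.319 and Gb1np 0.463 ± 0.305 RPKM (log2 fold change -2.30, SE 0.51, adjusted p = 0.0584, 0.429% of genes called), and Gb3WT had 3.40 ± 0.930 and Gb3np 1.19 ± 0.452 RPKM (log2 fold change -1.56, SE 0.34, adjusted p = 0.0184, 1.10% called). The groups did not overlap at any stage of G. barbadense. In G. hirsutum HB-8 was called at no stage. Gh1WT and Gh1np had 1.51 ± 0.497 and 1.36 ± 0.293 RPKM and Gh2WT and Gh2np 3.65 ± 1.07 and 3.74 ± 0.641, with overlap. At squaring the direction was the other one: Gh3np (3.15 ± 0.261) lay above Gh3WT (1.92 ± 0.426) without overlap and without passing (log2 fold change 0.63, SE 0.27, adjusted p = 0.105). The shares of genes called were 0.24% at pre-squaring and 1.78% at squaring, and 0% in seedlings, where 5854 genes had an unadjusted p under 0.05 and DESeq2 called 397.

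Side by side over the branch comparisons, HB-8 was called lower in Gb2np, where the family sum was not called (log2 fold change 0.30), and at squaring in G. hirsutum both were higher in the nulliplex line without a call. In squaring apexes of G. barbadense the family sum was higher and HB-8 lower in the nulliplex line, and only the family sum was called. The relation between them was not tested.

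CotAD_39504 had 13.4, 13.9 and 9.15 RPKM in Gb2WT and 2.75, 1.38 and 1.68 in Gb2np, and it was called lower in the nulliplex line (log2 fold change -2.67, SE 0.26, adjusted p = 1.0e-05). The call held without each of the 6 libraries in turn. At squaring it had 5.65 ± 3.34 RPKM in Gb3WT and 1.29 ± 0.341 in Gb3np and was not called (log2 fold change -2.18, SE 0.44, adjusted p = 0.0128). Seedlings of G. barbadense overlapped, at 3.91 ± 1.01 and 4.04 ± 1.08 RPKM. In G. hirsutum the gene was near its detection limit, with 0 to 8 reads in the normal-branch libraries and 0 to 34 in the nulliplex libraries, and it was too low to be tested at pre-squaring and squaring. In Gh1np against Gh1WT the log2 fold change was 3.31 (SE 0.86, adjusted p = 0.235).

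**Figure D5:**
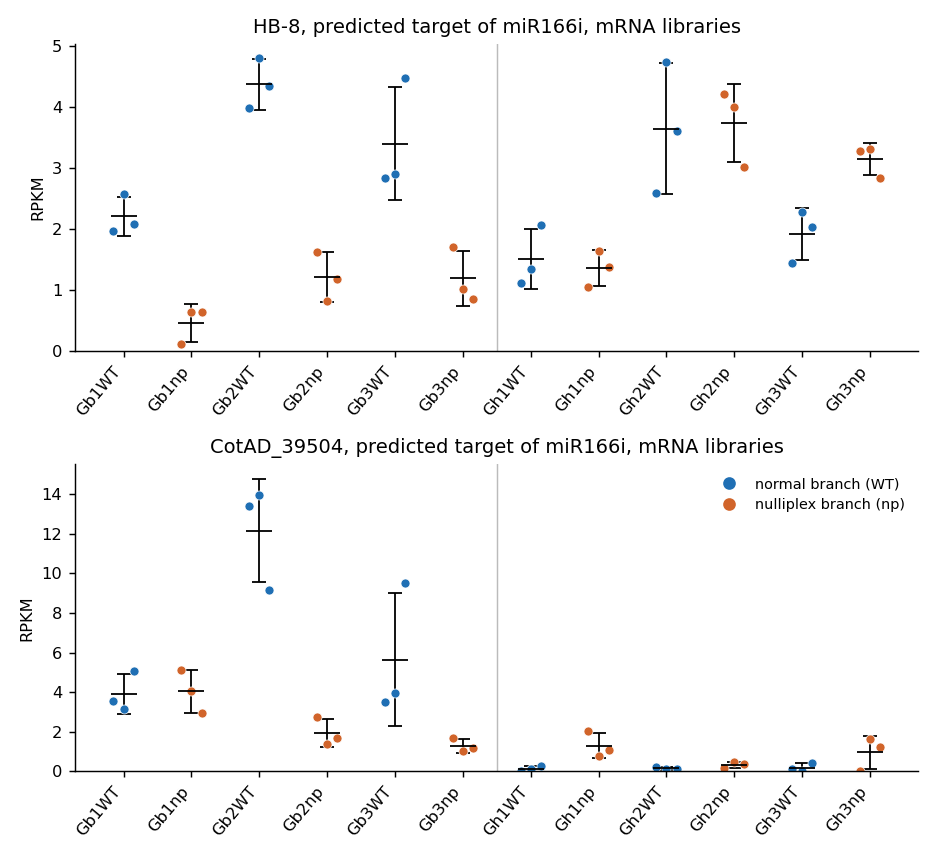
RPKM of HB-8 (upper panel) and CotAD_39504 (lower panel) in each mRNA library (points) with the group mean and SD (bars). Both genes are lower in Gb2np and Gb3np than in Gb2WT and Gb3WT without overlap, and CotAD_39504 is at most 2.02 RPKM in the G. hirsutum libraries.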

How the data were processed

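For small RNA the authors deposited read counts per miRNA name and library; they had removed adaptors, mapped reads to the genome with SOAP2, taken names from miRBase and predicted further miRNAs by Mireap. For mRNA the authors deposited the read count of each gene model, with RPKM computed by them from counts, coding length and library total; a gene not listed in a library was set to 0. RPM was computed here from the total of the miRNA table (3949 rows once known names were summed into families).

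Groups of 3 libraries were compared in 6 branch, 8 stage and 6 species comparisons with edgeR 4.0.16 in R 4.3.3 (quasi-likelihood F test, TMM, filterByExpr with a minimum count of 10; Benjamini-Hochberg over all rows tested). Calls needed an adjusted p under 0.001 with a log2 fold change beyond 1 in either direction, as in the study, which used DESeq. Standard errors were taken as the size of the log2 fold change divided by the root of F. Bounds against a group at 0 use 3 counts over the group and leave out the spread between replicates. Alternatives were DESeq2 1.42.0, limma 3.58.1 on log2(RPM + 1), other scalings and filters, known names only, 1 fit of 36 libraries, the replicate block and leaving out each library; scaling outside miR157 and summing the 4 excluding names were added after seeing the data. The tests were also run on simulated counts, but that outcome is not given here and no result rests on it.

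The text names all 7 members, 2 targets listed by the study, the 3 families most and the 3 least like the family (Pearson r of log2 mean RPM over 12 groups, families of at least 100 RPM) and a list of 7 other families. Members and lists were chosen with earlier results of these data known. Sequences were not used here.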

Additional observations from a re-analysis of the deposited data

How the results depend on the processing

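Over 320 alternative values of the 20 family comparisons 280 kept their direction and side of the threshold, as did 289 of 325 for single names, 23 of 25 for the branch contrasts and 79 of 90 for the mRNA targets; the cause of the changes was not tested unless stated. In squaring apexes of G. barbadense the family call was lost with the replicate block (log2 fold change 1.82), for the sum without miR166a-3p (1.33) and without each library in turn (1.74 to 1.93). The fit of 36 libraries added a call for miGh3np against miGh3WT (1.16) and, like DESeq2, for miGh3WT against miGh2WT (-1.32 and -1.24). miGh2np against miGh1np was called when scaled to reads outside the family (2.52) and with limma (1.63). miGb2WT against miGb1WT turned positive with DESeq2 (0.036), library totals (1.85), reads outside the family (2.40), limma (1.85), reads outside miR157 (0.60) and the sum without miR166a-3p (0.82), and miGb2np against miGb1np did so at 0.12, 1.93, 2.56, 1.94, 0.55 and 0.94; both passed the threshold as higher with library totals, reads outside the family and limma (adjusted p of 0.000152, 8.9e-05 and 5.0e-05, and of 0.000383, 0.000158 and 9.9e-05) (without 1 library -0.21 to 0.063). miGb1np against miGh1np, near 0, turned negative with DESeq2 (-0.016), library totals (-0.71), reads outside the family (-0.83), limma (-0.71) and reads outside miR157 (-0.079), with -0.10 to 0.17 without 1 library. The sum without miR166a-3p turned positive for miGh1np against miGh1WT (0.25), miGb1WT against miGh1WT (0.33) and miGb3WT against miGh3WT (0.45).

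The 2 branch calls of member names became 4 with DESeq2 or known names only, 1 with the 4 names summed and 0 with no filter or the replicate block (0 to 2 without 1 library). The 2 stage calls became 5 with DESeq2, 4 with library totals, 6 with reads outside the family, 1 with no filter or the 4 names summed and 0 with the block (1 to 2 without 1 library). The 1 species call became 3 with DESeq2 and 0 with no filter, 36 libraries, the block or the 4 names summed (0 to 1 without 1 library). The 1 arm call became 2 with 36 libraries and 0 with no filter or the block (0 to 1 without 1 library). The replicate numbers pair no samples in the labels, and same-numbered deviations correlated at -0.25 to 0.14, with the library of the same number not always the best match.

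Values near 0 changed sign. With library totals these were miR165a-5p at squaring in G. barbadense (-0.052), miR165a-3p at squaring in G. hirsutum (-0.091) and the species contrast at pre-squaring (-0.028; -0.015 to 0.27 without a replicate number). miR165a-5p in miGh3np against miGh3WT had 0.21 with reads outside the family and 0.011 with 36 libraries. Without 1 library the ranges were -0.50 to 0.23 for that value, -0.34 to 0.38 for miR165a-3p there, -0.38 to 0.080 for miR165a-3p in miGh1np against miGh1WT, -13.86 to 0.013 for miR166i in miGb1np against miGb1WT, -0.34 to 1.01 for miR166g-5p in miGh2np against miGh2WT, -13.90 to 0.31 for miR166d-5p in miGh3np against miGh3WT, -0.20 to 0.24 for CotAD_39504 in seedlings of G. barbadense, and -0.32 to 0.20 and -0.19 to 0.27 for HB-8 in seedlings and at pre-squaring of G. hirsutum. Totals of 754812 reads and more put miR166a-3p at 206598 counts or more, so the spread between replicates, not depth, limits the family, while HB-8 rests on 84 reads per library at most.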
